A study of Rattus norvegicus with 30 samples.

Results

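The organic anion and cation transporters were taken as every protein-coding gene of the count table whose symbol starts with Slc22a, Slc47a, Slco or Abcc followed by a digit. There were 45 such rows among the 32545 genes of the table, and 34 of them reached at least 10 counts in at least 5 of the 30 libraries and are described here. The kept members are 7 organic anion and urate transporters, 2 organic cation transporters, 3 carnitine and zwitterion transporters and 3 other members of the Slc22a family, 2 proton antiporters of the Slc47a family, 8 organic anion transporting polypeptides of the Slco family, and 7 efflux pumps and 2 sulfonylurea receptors of the Abcc family. The 11 rows left out held little signal. Slco1a2 reached 10 counts in 3 libraries and Slc22a3 in 2, Slc22a20 in 1 and the other 8 in none, while Abcc12 entered the set with exactly 5 libraries and Slc47a2 with 14.

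The libraries were made from poly(A) RNA of the cortex (Cx) and the outer medulla (OM) of the right kidney of male Sprague-Dawley (SD) rats, an outbred strain without a transgene. All rats ate a 0.4% NaCl diet (LS). The LS group was sampled on it, and the HS14 and HS21 groups were sampled 14 and 21 d after a switch to 4.0% NaCl (HS), with 5 libraries per tissue and group. No drug treatment was a factor of the design, and the age of these rats is not given in the sources used here. The paper's limitations say that anesthesia, surgery and tissue collection unavoidably biased the tissue data to some extent.

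Organic anions and cations, among them drugs, uremic solutes, urate and conjugated hormones, are secreted mainly by the proximal tubule. Carriers of the basolateral membrane, such as OAT1, OAT3 and OCT2, take them up from blood, and carriers and pumps of the apical membrane, such as MATE1, MRP2 and MRP4, pass them to the tubular fluid, while URAT1 takes urate back and OCTN2 takes carnitine back. Sulfonylurea receptors share the gene family of the MRP pumps but are subunits of ATP-sensitive potassium channels and transport no solute themselves.

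Promoter sequences are shown for 4 members whose transcripts were lowered together in the Cx at HS21 and for Slc22a2, which was not called there. The letters of 2 common elements of promoters are marked, TATAAA (a form of the TATA box) and CCAAT (the CCAAT box). Only these exact letters were searched, so other forms of either element are not marked. In the RefSeq sequences of the build GRCr8, 28 of the 34 members had an entry. The letters were read on either strand in the 250 bases before the start of the gene. TATAAA occurred in 1 of the 28 members (Slco2a1) and in 12.9% of all 33469 promoters of that length, and CCAAT in 11 of the 28 and in 34% of all promoters. A match is a run of letters, not a measured binding site. The 5 promoters lie on chromosome 1 at chr1:214927034-214927283 (+ strand) for Slc22a8, chr1:214862341-214862590 (- strand) for Slc22a25, chr1:252613625-252613874 (+ strand) for Abcc2, chr1:213281381-213281630 (- strand) for Slc22a12 and chr1:50711020-50711269 (- strand) for Slc22a2. They are printed in the direction of the gene, with the matches in capitals (ATTGG where CCAAT reads on the other strand). No matches overlap. The first printed letter of the CCAAT matches lies 87 bases before the start in Abcc2, 26 in Slc22a12 and 102 and 86 in Slc22a2. Neither run of letters is in the windows of Slc22a8 and Slc22a25, and TATAAA is in none of the 5. The share of G and C was 56% in Slc22a8 and 39.2% in Slc22a25, the highest and lowest of the 5.
Slc22a8: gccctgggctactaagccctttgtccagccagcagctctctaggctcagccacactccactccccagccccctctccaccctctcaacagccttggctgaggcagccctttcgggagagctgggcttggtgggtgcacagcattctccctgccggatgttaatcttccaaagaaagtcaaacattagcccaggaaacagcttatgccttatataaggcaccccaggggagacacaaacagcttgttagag
Slc22a25: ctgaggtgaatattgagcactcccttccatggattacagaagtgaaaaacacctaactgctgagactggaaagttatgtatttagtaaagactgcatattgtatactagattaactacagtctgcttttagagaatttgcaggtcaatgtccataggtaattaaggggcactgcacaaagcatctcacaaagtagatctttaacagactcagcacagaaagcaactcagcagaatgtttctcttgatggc
Abcc2: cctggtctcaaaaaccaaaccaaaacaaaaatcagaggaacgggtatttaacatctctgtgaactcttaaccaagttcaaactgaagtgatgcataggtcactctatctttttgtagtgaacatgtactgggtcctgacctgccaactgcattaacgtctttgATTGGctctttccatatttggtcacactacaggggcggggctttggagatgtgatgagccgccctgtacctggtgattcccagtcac
Slc22a12: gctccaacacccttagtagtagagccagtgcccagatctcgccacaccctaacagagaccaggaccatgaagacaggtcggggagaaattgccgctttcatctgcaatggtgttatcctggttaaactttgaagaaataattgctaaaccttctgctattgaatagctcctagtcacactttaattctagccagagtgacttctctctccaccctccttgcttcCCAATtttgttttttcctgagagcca
Slc22a2: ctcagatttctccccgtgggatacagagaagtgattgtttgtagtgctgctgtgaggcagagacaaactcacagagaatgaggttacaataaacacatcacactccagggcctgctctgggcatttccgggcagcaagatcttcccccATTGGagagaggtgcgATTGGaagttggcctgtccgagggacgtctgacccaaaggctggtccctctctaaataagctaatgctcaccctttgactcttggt

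The gene counts of a library summed to between 5408126 (OM HS14 replicate 10) and 21842843, and the second lowest sum was 12748841. The members together took 0.548% to 0.628% of the counts in the Cx on LS, 0.44% to 0.537% at HS14 and 0.374% to 0.482% at HS21. In the OM on LS they took 0.177% to 0.749%, a wider range than in any other group. Marker genes fixed for each cell type followed the tissue labels. The summed level of 5 markers of the thick ascending limb was 625 to 865 FPKM (fragments per kilobase of gene, scaled to the library size and computed here from the counts) in the Cx and 4140 to 8460 in the OM on LS, and that of 4 podocyte markers was 149 to 166 in the Cx and 21.6 to 66.9 in the OM.

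The OM libraries held very different amounts of proximal tubule marker RNA, and 2 of the LS group stood apart. The summed level of 15 proximal tubule markers, none of them a member, was 2530, 9940, 4330, 4300 and 759 FPKM in OM LS replicates 1 to 5. Replicate 2 thus reached the level of the Cx (9930 to 11700 on LS), and it also had the highest podocyte sum of its group and 118 FPKM of distal convoluted tubule markers, against a median of 6.56. Replicate 5 had the lowest proximal sum of all 30 libraries. At HS14 the OM libraries ranged from 1710 to 4930, and at HS21 from 1580 to 5050, with replicate 11 lowest. The sum of 3 separate markers of the last proximal segment (S3) was higher in the OM. It was 15 to 65.9 FPKM in the Cx and 463 to 3080 FPKM in the OM on LS, where replicates 2 and 5 were again highest and lowest. The OM comparisons were therefore also fitted without OM LS replicates 2 and 5 and the shallow OM HS14 replicate 10. In the study's supplement that HS14 library also had the highest share of intronic reads of all libraries. In such bulk samples, fewer cells of a type and less RNA per cell cannot be told apart.

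On the LS diet the tissues used different members. In the Cx the most abundant transcripts per length were Slc22a6 (816 ± 62 FPKM, mean ± SD, n = 5) and Slc22a8 (637 ± 35.1 FPKM), which encode OAT1 and OAT3, the basolateral exchangers that load organic anions into the proximal cell. They were followed by Slc47a1 and Slc22a12 at 179 and 177 FPKM, whose standard deviations overlap. Slc22a6 stood 53rd and Slc22a8 80th among all protein-coding genes of the Cx. In the OM the order was led by Slco1a6 (467.6 ± 251.8 FPKM) and Slc22a2 (345 ± 200 FPKM), whose spreads overlap, and then by Slc22a12 and Slco1a1 at 182 and 178 FPKM.

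The edgeR quasi-likelihood test, adjusted over all genes tested, called 15 of the 32 tested members higher and 8 lower in the OM than in the Cx, which is 46.9% and 25% of them. Of all 14295 genes, 21.3% were higher and 19.5% lower. The median log2 ratio, OM over Cx, was 0.31 for the members and 0.029 for all genes. The groups did not overlap in 16 of the 32 members, against 29% of all genes. Without OM LS replicates 2 and 5 the counts were 15 higher and 12 lower of 33, with all of the original 15 and 8 among them, and of all 14705 genes tested in that fit 26.2% were higher and 26.6% lower. In that fit the log2 ratio was -6.65 ± 0.72 for Slc22a8, -3.72 ± 0.32 for Slc22a6 and -2.15 ± 0.12 for Abcc2. It was 7.54 ± 0.31 for Slc22a13, 6.43 ± 0.44 for Slc22a7, 4.85 ± 0.42 for Slco1a6, 3.98 ± 0.32 for Slco4c1, 3.31 ± 0.20 for Slco4a1 and 1.96 ± 0.205 for Slc22a2. By the study's methods Cx and OM were cut from the same kidneys, so the tissues share rats, but no source used here says that equal numbers mark 1 rat. With the replicate number as a block 12 members were higher and 8 lower, the calls for Slc22a15, Abcc3 and Abcc8 being lost. Of all genes, 17.1% were higher and 18% lower in the blocked fit.

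**Figure D1:**
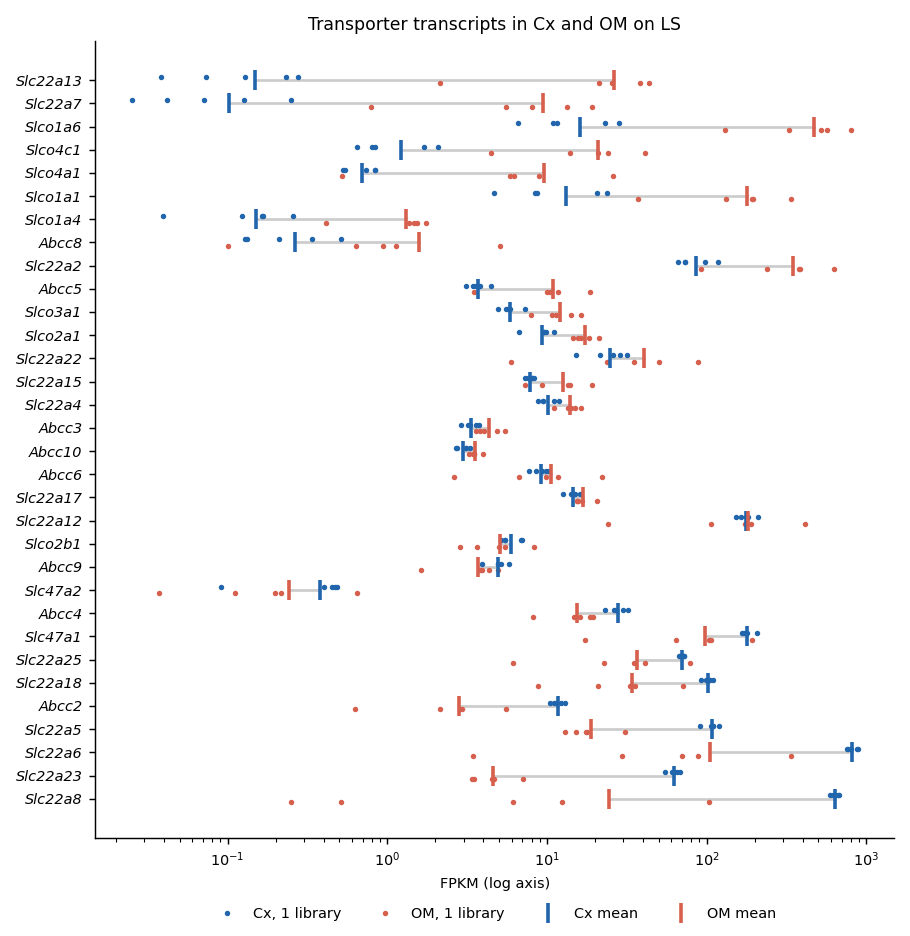
Level of 32 members in the 5 Cx (blue) and 5 OM (red) libraries on LS, in FPKM on a log axis, ordered by the ratio of the tissue means. Points are libraries and vertical ticks are means; Abcc12, at 0 in 2 of the Cx libraries, is among the members not drawn. Members of the Slco family crowd the upper rows, with Slco1a6 at 468 FPKM in the OM, and Slc22a8 and Slc22a6 the lower rows, where the OM libraries are spread most widely.

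Among the organic anion transporters, Slc22a8 and Slc22a6 were lower in the OM, and Slc22a13 and Slc22a7 were higher. Slc22a8 was measured at 620, 664, 589, 676 and 634 FPKM in the Cx and 0.513, 103, 12.5, 6.1 and 0.251 FPKM in the OM. Slc22a6 was measured at 797, 770, 751, 877 and 887 FPKM in the Cx and 29.3, 336, 88.2, 69.7 and 3.42 FPKM in the OM. Every OM library lay below every Cx library for both genes, but OM replicate 2 lay far above the other four, and the log2 ratios of -4.70 ± 1.35 (SE, adjusted P = 0.0182) and -2.95 ± 0.88 (adjusted P = 0.0213) moved to between -7.05 and -4.38 and between -4.11 and -2.64 when single libraries were left out. The call for Slc22a6 was lost without OM LS replicate 3 or 4. Slc22a13, which encodes the urate and nicotinate exchanger OAT10, stood at 0.0382, 0.275, 0.231, 0.0735 and 0.128 FPKM in the Cx and 21.3, 43.4, 38.2, 25.7 and 2.13 FPKM in the OM. The groups did not overlap, and the log2 ratio of 7.42 ± 0.87 was the largest of the members (adjusted P = 0.000109). Slc22a7, which encodes OAT2, stood at 0.248, 0.127, 0.025, 0.0715 and 0.0417 FPKM in the Cx and 5.55, 19.2, 13.3, 8.02 and 0.791 FPKM in the OM, again without overlap (log2 ratio 6.50 ± 0.91, adjusted P = 0.00031).

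The urate transporter URAT1 (Slc22a12) was not called between the tissues. It stood at 165, 152, 175, 209 and 182 FPKM in the Cx and 107, 413, 174, 190 and 24.2 FPKM in the OM. The OM libraries lay on both sides of the Cx, and the log2 ratio of 0.04 had a 95% interval from -1.20 to 1.27. Slc22a25 and Slc22a22, the gene of a prostaglandin-specific anion transporter, were not called either with all libraries (adjusted P = 0.157 and 0.315). Without OM LS replicates 2 and 5, Slc22a25 was lower in the OM by a log2 ratio of -1.09 ± 0.16 (adjusted P = 0.000213).

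Slc22a2, which encodes OCT2, the main basolateral cation carrier of the rat kidney, stood at 66.3, 72.7, 73.2, 97.4 and 117 FPKM in the Cx and 239, 631, 383, 380 and 92.2 FPKM in the OM. Slc22a2 was higher in all OM libraries but replicate 5, which lay within the Cx range (log2 ratio 2.02 ± 0.42, adjusted P = 0.00357). A low-count gene on the opposite strand overlaps Slc22a2, with a mean count of 43.6 against 6290.

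The proton antiporter MATE1 (Slc47a1), which passes organic cations to the tubular fluid, stood at 170, 167, 175, 206 and 178 FPKM in the Cx and 64.4, 193, 107, 104 and 17.2 FPKM in the OM. The tissues overlapped through OM replicate 2 (log2 ratio -0.88 ± 0.47, adjusted P = 0.156). Without OM LS replicates 2 and 5 the ratio was -0.97 ± 0.16 and was called (adjusted P = 0.000414). Slc47a2, which lies 1.39 kb from it on the same strand, was barely expressed, at 0.401, 0.0914, 0.449, 0.471 and 0.487 FPKM in the Cx and 0.215, 0.648, 0.0371, 0.111 and 0.197 FPKM in the OM, and did not pass the filter on low counts in this comparison. Without those libraries it passed and was called (-1.62 ± 0.61, adjusted P = 0.0463).

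Of the carnitine and zwitterion transporters, Slc22a5 (OCTN2, the sodium-dependent carnitine carrier) was lower and its neighbour Slc22a4 (OCTN1), 6.88 kb away on the same strand, was higher in the OM. Slc22a5 stood at 120, 109, 91.4, 110 and 106 FPKM in the Cx and 15.2, 30.6, 17.5, 17.7 and 12.9 FPKM in the OM. Slc22a4 stood at 9.44, 9.49, 11.1, 8.8 and 11.9 FPKM in the Cx and 14.2, 14.9, 16.3, 13.6 and 11.1 FPKM in the OM. The first pair of groups lay far apart (log2 ratio -2.52 ± 0.22, adjusted P = 2.02e-05), and the second overlapped (log2 ratio 0.46 ± 0.12, adjusted P = 0.0138). Slc22a15 stood at 7.59, 8.09, 8.02, 7.3 and 8.3 FPKM in the Cx and 9.29, 19.1, 13.9, 13.6 and 7.27 FPKM in the OM, with overlap, and its call (log2 ratio 0.68, adjusted P = 0.033) was lost when any of 7 single libraries was left out.

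The Slco family was the most one-sided, with 7 of its 8 members higher in the OM and none lower. Slco1a6 stood at 10.9, 6.58, 11.6, 23.1 and 28.4 FPKM in the Cx and 328, 796, 516, 567 and 130 FPKM in the OM (log2 ratio 4.86 ± 0.58, adjusted P = 0.000121). Slco1a1, whose product carries bile acids and conjugated steroids, stood at 8.7, 4.67, 8.46, 20.5 and 23.8 FPKM in the Cx and 133, 336, 195, 191 and 37.4 FPKM in the OM (log2 ratio 3.75 ± 0.62, adjusted P = 0.000906). Neither gene overlapped between the tissues. These genes and Slco1a4 lie close together on chromosome 4, and reads could be shared between such paralogs, so their separate levels are uncertain. Slco1a4 itself reached 1.3 ± 0.518 FPKM in the OM and 0.15 ± 0.0788 FPKM in the Cx, where its libraries stood at 0.163, 0.167, 0.123, 0.0392 and 0.257.

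Slco4c1, the gene of a basolateral carrier of thyroid hormone and cardiac glycosides, stood at 0.831, 0.643, 0.806, 1.69 and 2.08 FPKM in the Cx and 13.9, 41.1, 24, 20.8 and 4.48 FPKM in the OM (log2 ratio 4.09 ± 0.58, adjusted P = 0.000349). Slco2a1, the gene of the prostaglandin transporter, stood at 6.66, 9.84, 9.52, 11.1 and 9.64 FPKM in the Cx and 18.3, 14.6, 16.4, 15.7 and 21.2 FPKM in the OM (log2 ratio 0.88 ± 0.14, adjusted P = 0.000645). Neither gene overlapped between the tissues, and the spread of Slco2a1 within the OM was narrow beside that of Slco4c1. Slco3a1 and Slco4a1 were also higher, at log2 ratios of 1.04 and 3.75, although OM replicate 2, at 0.519 FPKM, lay below all Cx libraries for Slco4a1. Slco2b1 was not called (log2 ratio -0.25 ± 0.25, adjusted P = 0.44).

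Of the efflux pumps, Abcc2 (MRP2) and Abcc4 (MRP4), which export conjugates and other organic anions across the apical membrane, were lower in the OM. Abcc2 stood at 12.3, 11.4, 11.1, 13 and 10.5 FPKM in the Cx and 2.14, 5.5, 2.94, 2.87 and 0.627 FPKM in the OM. Abcc4 stood at 27.1, 23.2, 26.3, 29.9 and 32.1 FPKM in the Cx and 18.5, 8.13, 16.1, 14.7 and 19.3 FPKM in the OM. Neither gene overlapped between the tissues, with log2 ratios of -2.06 ± 0.41 (adjusted P = 0.00273) and -0.86 ± 0.20 (adjusted P = 0.00627). Abcc5 was called higher (1.55 ± 0.34, adjusted P = 0.00429), and so was Abcc3, the gene of the basolateral pump MRP3 (0.38 ± 0.13, adjusted P = 0.0383), which lost the call without any of 6 single libraries. Abcc5 overlaps Yeats2 on the other strand, whose mean count was 1230 against 710 for Abcc5, and since the libraries did not record the strand the level of Abcc5 is uncertain. Abcc6 and Abcc10 were not called (adjusted P = 0.721 and 0.0527), and Abcc12 was not tested. It was the lowest member, at 0.0337, 0, 0.017, 0 and 0.0424 FPKM in the Cx and 0.108, 0.0377, 0.168, 0.014 and 0.0149 FPKM in the OM.

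The remaining members were mixed. Slc22a23 and Slc22a18, both of unsettled function, fell from 62.2 ± 5.03 FPKM in the Cx to 4.62 ± 1.48 FPKM in the OM and from 102 ± 6.66 to 34 ± 23.5 FPKM (adjusted P = 1.61e-06 and 0.0134). Slc22a17, the gene of a lipocalin 2 receptor, stood at 12.6, 14.2, 15, 16.1 and 14.7 FPKM in the Cx and 16.5, 20.7, 15.4, 15.5 and 15.7 FPKM in the OM and was not called (adjusted P = 0.14). The sulfonylurea receptor gene Abcc8 stood at 0.129, 0.132, 0.211, 0.511 and 0.338 FPKM in the Cx and 0.635, 5.04, 1.14, 0.937 and 0.0998 FPKM in the OM, with overlap and with 1 high library. Its call (adjusted P = 0.0357) was lost without that library, OM LS replicate 2, and without any of 5 others.

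Within the OM on LS, 20 of the 34 members were highest in replicate 2 and lowest in replicate 5, the libraries with the highest and lowest sums of proximal markers. The range was unequal between genes. The marker sum differed 13.1-fold between those libraries, Slc22a8 410-fold, Slc22a6 98.1-fold and Slc22a12 17.1-fold, while Slc22a2 differed 6.84-fold and Slco1a6 6.11-fold. Both of the latter genes were higher in the OM than in the Cx. Another 7 members ran the other way, highest in replicate 5 and lowest in replicate 2, among them Slco4a1 (0.519 to 26 FPKM), Abcc5 (3.5 to 18.7 FPKM) and Slco2a1 (14.6 to 21.2 FPKM). Slc22a5 stayed between 12.9 and 30.6 FPKM, and Abcc10 between 3.26 and 3.98 FPKM. In the Cx on LS the marker sum differed 1.18-fold between the lowest and the highest library.

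**Figure D2:**
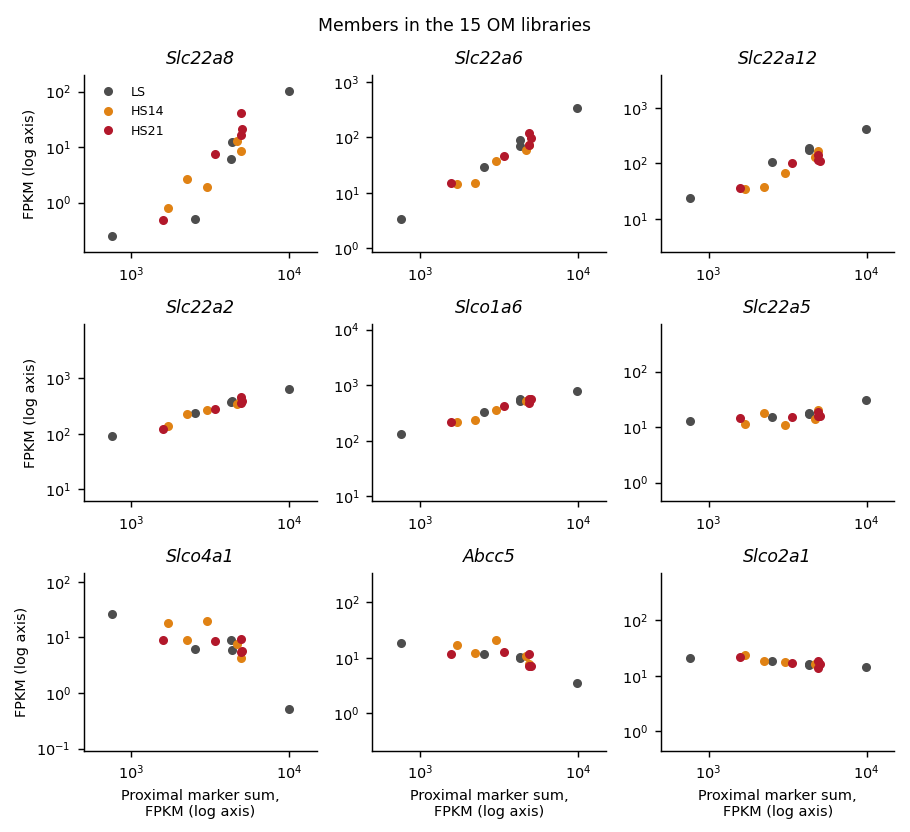
Level of 9 members (FPKM, log axis) against the summed level of 15 proximal tubule markers (FPKM, log axis) in the 15 OM libraries, coloured by diet; all panels span the same number of decades. Slc22a8 rises most steeply, from 0.251 to 103 FPKM across the LS libraries, Slc22a2 and Slco1a6 rise less, Slc22a5 changes little, and Slco4a1 and Abcc5 are lowest in the library with the most proximal marker RNA.

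The effect of the HS diet on these transporters was asked in each tissue. In the Cx after 14 d, 2 of the 29 tested members were lowered and none was raised. This is 6.9% lowered, against 1.18% of all 14181 genes, and 1.14% of all genes were raised. The 2 were Slc22a6 and Slc22a8. At an unadjusted p under 0.05, 1 member was raised and 6 were lowered, against 9.05% and 8.31% of all genes, and DESeq2 called 5 lowered and none raised, against 1.93% and 2.34% of all 21404 genes it tested. The median log2 ratio to LS was -0.13 over the members and -0.0021 over all genes, and 22 of the 29 members lay below 0. The groups did not overlap in 4 members, against 5.27% of all genes.

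After 21 d the Cx held many more changes, with 13 of the 31 tested members lowered and 4 raised. The 13 are 41.9% of the members tested, against 20.5% of all 14299 genes lowered, and the 4 are 12.9%, against 18.9% of all genes raised. The groups did not overlap in 13 members, against 26.7% of all genes. The median log2 ratio was -0.022 over the members and 0.0046 over all genes. By role, those lowered included 4 of the 6 tested organic anion and urate transporters, 2 of 3 carnitine and zwitterion transporters, 1 of 2 proton antiporters, 3 of 6 efflux pumps and 2 of the 3 other Slc22a genes, but 0 of the 7 tested Slco genes, 2 of which were raised. When libraries were scaled by their total counts, which shifted the median of all genes to 0.13, 11 members were lowered and 5 raised, and of all genes 1653 were lowered and 4401 raised instead of 2936 and 2702.

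The organic anion exchangers fell at both times. Slc22a6 stood at 797, 770, 751, 877 and 887 FPKM on LS, 629, 687, 575, 584 and 614 FPKM at HS14 and 402, 475, 582, 541 and 502 FPKM at HS21. Slc22a8 stood at 620, 664, 589, 676 and 634 FPKM on LS, 533, 577, 513, 503 and 439 FPKM at HS14 and 373, 358, 442, 425 and 409 FPKM at HS21. For both genes every HS library lay below every LS library. The log2 ratio of Slc22a6 to LS was -0.41 ± 0.07 at HS14 (adjusted P = 0.0153) and -0.71 ± 0.094 at HS21 (adjusted P = 0.000197), which left 0.612 of the LS level. That of Slc22a8 was -0.32 ± 0.072 at HS14 (adjusted P = 0.0441) and -0.67 ± 0.069 at HS21 (adjusted P = 4.29e-05). At HS14 the Slc22a6 call was lost without Cx LS replicate 4, and the Slc22a8 call without any of 8 single libraries. The same genes lie 6.32 kb apart on the same strand of chromosome 1 of Rnor_6.0, at 224800252 to 224818482 (Slc22a8) and 224824799 to 224833259 (Slc22a6).

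Urate reabsorption through URAT1 is the task of Slc22a12, which stood at 165, 152, 175, 209 and 182 FPKM on LS, 117, 120, 63.8, 72.3 and 141 FPKM at HS14 and 87.7, 89.1, 104, 82.5 and 88.5 FPKM at HS21. All HS libraries lay below all LS libraries, and the HS14 libraries were spread more widely than those of either other group.
The log2 ratio was -0.97 ± 0.087 at HS21 (adjusted P = 2.19e-05) and -0.79 ± 0.20 at HS14, where it missed the threshold (adjusted P = 0.0613) but was called without HS14 replicate 10 (adjusted P = 0.0199) and by DESeq2 (adjusted P = 0.00204). Slc22a25 stood at 71.6, 67.8, 68.9, 72.5 and 67.4 FPKM on LS, 64.1, 69, 74.8, 68.3 and 56.8 FPKM at HS14 and 43.6, 42.3, 49.4, 43.4 and 34.9 FPKM at HS21. Here the HS21 libraries lay below all others while those of HS14 and LS overlapped, and the log2 ratios were -0.072 ± 0.064 at HS14 (adjusted P = 0.625) and -0.71 ± 0.077 at HS21 (adjusted P = 5.99e-05). Slc22a7 was the one anion transporter called higher at HS21, at 0.248, 0.127, 0.025, 0.0715 and 0.0417 FPKM on LS and 0.412, 0.0431, 0.269, 0.53 and 0.419 FPKM at HS21. Its level was among the lowest of the set, the groups overlapped, and the call (log2 ratio 1.70 ± 0.63, adjusted P = 0.0494) was lost without any of 8 single libraries. Slc22a22 was not called at either time (-0.29 ± 0.23, adjusted P = 0.333 at HS21), and Slc22a13 was too low in the Cx to be tested.

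Slc22a2 (OCT2) stood at 66.3, 72.7, 73.2, 97.4 and 117 FPKM on LS, 66.3, 64.5, 54.1, 44.4 and 61.4 FPKM at HS14 and 57, 37.4, 92.5, 73.3 and 50.6 FPKM at HS21. Its log2 ratios of -0.56 ± 0.16 at HS14 (adjusted P = 0.0886) and -0.46 ± 0.23 at HS21 (adjusted P = 0.132) missed the threshold. DESeq2 called the first (adjusted P = 0.0144), and the second was called without HS21 replicate 13, the highest of its group (adjusted P = 0.0276).

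Slc47a1 (MATE1), the apical exit for organic cations, stood at 170, 167, 175, 206 and 178 FPKM on LS, 154, 183, 179, 174 and 123 FPKM at HS14 and 106, 84.7, 115, 106 and 97.9 FPKM at HS21. The fall came between the HS times, with a log2 ratio to LS of -0.15 ± 0.10 at HS14 (adjusted P = 0.499) and -0.82 ± 0.083 at HS21 (adjusted P = 4.02e-05) and of -0.67 ± 0.11 from HS14 to HS21 (adjusted P = 0.00698). Slc47a2 stood at 0.593, 0.581, 0.725, 0.381 and 0.595 FPKM at HS21 and was not called (0.58 ± 0.35, adjusted P = 0.213).

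**Figure D3:**
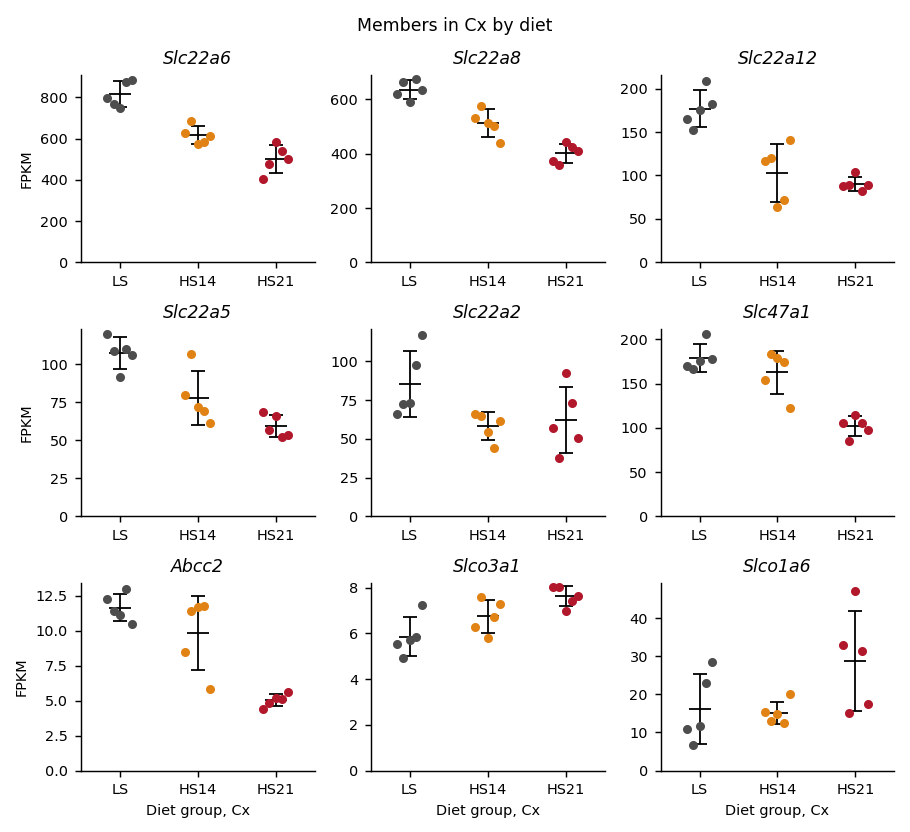
Level in FPKM (axes from 0) of 9 members in the Cx by diet group. Points are libraries, dashes with bars are the mean ± SD of 5 libraries. For Slc22a6, Slc22a8 and Slc22a12 all HS libraries lie below all LS libraries, Slc47a1 and Abcc2 fall mainly between HS14 and HS21, Slc22a2 at HS21 overlaps LS, and Slco3a1 and Slco1a6 do not fall.

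Slc22a5 (OCTN2) stood at 120, 109, 91.4, 110 and 106 FPKM on LS, 79.7, 107, 72.2, 69.1 and 61.5 FPKM at HS14 and 68.3, 56.9, 66, 52.5 and 53.7 FPKM at HS21. The HS21 libraries did not overlap LS (log2 ratio -0.85 ± 0.093, adjusted P = 5.99e-05), and at HS14 only replicate 7 lay within the LS range (-0.47 ± 0.13, adjusted P = 0.0811). Without that replicate the HS14 ratio was called at -0.61 ± 0.090 (adjusted P = 0.0074). Slc22a4 (OCTN1) stood at 9.44, 9.49, 11.1, 8.8 and 11.9 FPKM on LS, 8.9, 9.12, 11.1, 10.8 and 7.7 FPKM at HS14 and 8.33, 7.53, 9.36, 6.84 and 5.83 FPKM at HS21. It was called lower at HS21 (-0.43 ± 0.13, adjusted P = 0.0249), a call lost without any of 4 single libraries and under total-count scaling. Slc22a15 was not called (0.061 ± 0.091, adjusted P = 0.627).

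The apical pump gene Abcc2 (MRP2) had the largest fall of the members at HS21. It stood at 12.3, 11.4, 11.1, 13 and 10.5 FPKM on LS, 8.45, 11.4, 11.7, 11.8 and 5.82 FPKM at HS14 and 4.41, 4.81, 5.21, 5.12 and 5.61 FPKM at HS21. At HS14 replicates 6 and 10 lay below the LS range and the other libraries within it, whereas at HS21 all 5 lay below every other Cx library. The log2 ratio to LS was -0.25 ± 0.16 at HS14 (adjusted P = 0.475) and -1.22 ± 0.078 at HS21 (adjusted P = 3.28e-06), which left 0.431 of the LS level. Abcc4 (MRP4) stood at 27.1, 23.2, 26.3, 29.9 and 32.1 FPKM on LS, 28.1, 26.4, 27.3, 36.2 and 15.8 FPKM at HS14 and 19.8, 15.7, 19.7, 19.3 and 18 FPKM at HS21. HS21 lay below LS without overlap (-0.59 ± 0.09, adjusted P = 0.000487), and HS14 held both the highest and one of the lowest libraries. Abcc3 (MRP3) stood at 2.89, 3.18, 3.73, 3.57 and 3.29 FPKM on LS and 2.59, 2.41, 2.78, 3.16 and 2.88 FPKM at HS21, with overlap. Its call (-0.27 ± 0.093, adjusted P = 0.0359) was lost without any of 8 single libraries and under total-count scaling, and its direction turned with the intron share (0.075) and with the proximal marker sum (0.21) as a covariate.

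Abcc5 (MRP5, an exporter of cyclic nucleotides) was raised, at 4.48, 3.46, 3.79, 3.12 and 3.57 FPKM on LS, 4.26, 3.97, 3.56, 4.31 and 4.78 FPKM at HS14 and 5.55, 5.99, 5.25, 6.05 and 6.4 FPKM at HS21. HS21 lay above all other Cx libraries (log2 ratio to LS 0.66 ± 0.10, adjusted P = 0.000343). The overlap with Yeats2 named above applies here too. Abcc6 and Abcc10 had log2 ratios of -0.013 (95% interval -0.29 to 0.26) and -0.022 (-0.21 to 0.16).

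None of the Slco genes was lowered in the Cx at HS21, and their log2 ratios to LS ran from 0.13 to 0.83 over the 7 tested. Slco3a1 stood at 5.54, 4.92, 5.69, 5.86 and 7.24 FPKM on LS and 8.02, 8.03, 6.98, 7.43 and 7.62 FPKM at HS21, with LS replicate 5 inside the HS21 range (log2 ratio 0.38 ± 0.10, adjusted P = 0.00854). Slco2b1 stood at 6.86, 5.46, 6.97, 5.47 and 5.17 FPKM on LS, 8.75, 7.75, 8.6, 7.7 and 5.69 FPKM at HS14 and 7, 7.11, 7.3, 10.6 and 9.23 FPKM at HS21. HS21 lay above all LS libraries for Slco2b1 (0.46 ± 0.14, adjusted P = 0.0181), and HS14 did so in all libraries but replicate 10 and was called only without it (0.44 ± 0.098, adjusted P = 0.0354).

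Slco1a6 and Slco1a1 had larger ratios and were not called, and their libraries varied together and widely. Slco1a6 stood at 10.9, 6.58, 11.6, 23.1 and 28.4 FPKM on LS and 33, 15, 47.3, 31.3 and 17.4 FPKM at HS21, and Slco1a1 at 8.7, 4.67, 8.46, 20.5 and 23.8 and 29.8, 10.7, 39.6, 26 and 12.2 FPKM. In both genes LS replicates 4 and 5 and HS21 replicates 11, 13 and 14 were the high ones, and the groups overlapped. The log2 ratios were 0.83 ± 0.40 (adjusted P = 0.123) and 0.83 ± 0.46 (adjusted P = 0.176). Without Cx LS replicate 5, Slco1a6 was called (1.14 ± 0.40, adjusted P = 0.0479). Slco4c1 stood at 0.831, 0.643, 0.806, 1.69 and 2.08 FPKM on LS and 2.37, 1.23, 2.21, 1.43 and 1.58 FPKM at HS21 and was not called either (0.54 ± 0.33, adjusted P = 0.215). The 3 markers of the last proximal segment (S3) were not called at HS21 in the Cx, and the strongest of them, Slc7a13, had a ratio of 0.98 ± 0.50 (adjusted P = 0.144). Slco2a1 stood at 6.66, 9.84, 9.52, 11.1 and 9.64 FPKM on LS, 12.3, 13.1, 13.3, 13.7 and 6.63 FPKM at HS14 and 12.9, 7.99, 10.8, 10.3 and 9.13 FPKM at HS21, and its ratios were 0.33 ± 0.18 at HS14 (adjusted P = 0.383) and 0.13 ± 0.14 at HS21 (adjusted P = 0.512). Replicate 10 was by far the lowest HS14 library, and without it the HS14 ratio was 0.48 ± 0.11 and was called (adjusted P = 0.0471).

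Of the remaining Slc22a genes, Slc22a18 stood at 105, 104, 92.2, 110 and 99.5 FPKM on LS and 81.2, 68.6, 84.5, 77.7 and 67.2 FPKM at HS21. Slc22a23 stood at 60.6, 64.8, 54.6, 62.7 and 68 FPKM on LS and 48.7, 39.1, 47.1, 43.4 and 43.3 FPKM at HS21. Both lay below LS without overlap, with log2 ratios of -0.43 ± 0.074 (adjusted P = 0.000901) and -0.49 ± 0.073 (adjusted P = 0.000408). Slc22a17 and the sulfonylurea receptor genes Abcc8 and Abcc9 were not called, at 0.15, 0.05 and 0.058. The 95% interval was narrow for Abcc9 (-0.25 to 0.37) and wide for Abcc8 (-1.08 to 1.18).

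Between the HS times in the Cx, 6 of 31 members were lowered and 3 raised. These are 19.4% and 9.68% of the members, against 9.69% and 6.5% of all 14395 genes, and the groups did not overlap in 7 members, against 9.96% of all genes. Those lowered included Abcc2 (-0.96 ± 0.17), Slc47a1, Slc22a25 (-0.63 ± 0.093), Slc22a18 and Slc22a8, and raised were Slco1a6 (0.93 ± 0.28), Slco4a1 and Abcc5. The call for Slco4a1 was lost without any of the 10 single libraries. That for Slco1a6 was lost without any of 7, and that for Slc22a8 without any of 3. In the same comparison, 1 of the 3 markers of the last proximal segment was raised (Slc7a13, 1.30 ± 0.32, adjusted P = 0.0207) and 1 was lowered. The median log2 ratio of these markers was 0.086. Of the 15 proximal tubule markers, 7 were lowered. The comparisons with LS and between the HS times share libraries, so these values are not independent of those above. Without HS14 replicate 10, which was the lowest library of its group in 17 of the 34 members, 10 members were lowered and 3 raised, and of all genes 14.1% were lowered and 10.2% raised.

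Other transcripts moved with these changes. In the Cx at HS21, 14 of the 15 proximal tubule markers were lowered, with a median log2 ratio of -0.68, and their summed level was 6260 to 7850 FPKM against 9930 to 11700 on LS, without overlap. All 11 leukocyte markers were raised (median 1.91), with summed levels of 1040 to 4510 against 751 to 868 FPKM. Of the thick ascending limb markers, 3 of 5 were raised and 1 was lowered, and 4 of 5 collecting duct markers were raised. With the proximal marker sum as a covariate, 0 of the 31 members were called in either direction, and of all genes 0.497% were lowered and 0.0839% raised. The marker sum and the diet had no overlap in these libraries and cannot be told apart by that fit. The fitted ratios were -0.13 ± 0.24 for Slc22a6 and -0.28 ± 0.18 for Slc22a8, but -1.03 ± 0.29 for Slc22a5 and -0.99 ± 0.24 for Abcc2 (adjusted P = 0.835, 0.477, 0.13 and 0.0989). With the share of intronic reads, listed per library in the study's supplement, as a covariate, 10 members were lowered and none raised, Abcc2 at -1.17 ± 0.14 (adjusted P = 0.00291), and of all genes 6.25% were lowered and 4.89% raised. The intron shares of the LS and HS21 libraries did not overlap either, so that fit cannot tell them apart from the diet. What part cell composition and RNA quality had in these calls was therefore not tested.

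**Figure D4:**
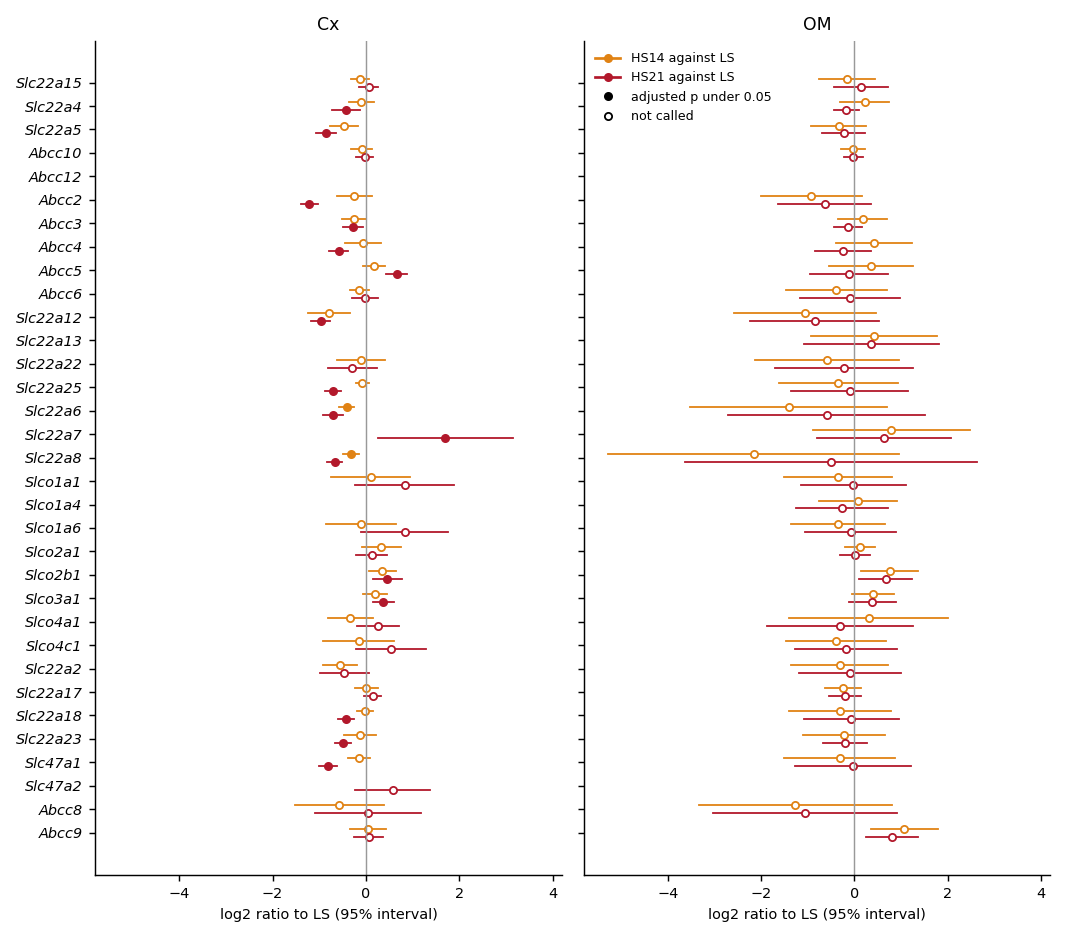
Log2 ratio to LS with its 95% interval for the tested members drawn, in the Cx (left) and the OM (right), at HS14 (orange) and HS21 (red), grouped by role. Filled points passed an adjusted p of 0.05. In the Cx at HS21 all filled points below 0 are outside the Slco family, and the OM intervals are wider, with no filled point.

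In the OM none of the 32 tested members was called at HS14 or HS21. At an unadjusted p under 0.05, 2 members were raised and 0 lowered at each time, against 4.28% and 1.45% of all genes at HS14 and 6.95% and 4.29% at HS21. DESeq2 called 0 members at HS14 and 1, Abcc9, at HS21, and limma on log2(FPKM + 1) called 0. Of all genes, 0.00694% were raised and 0% lowered at HS14 (14417 tested), and 0.639% and 0.131% at HS21 (14555 tested). The median log2 ratio of the members was -0.28 at HS14 and -0.12 at HS21, against -0.023 and -0.031 over all genes. Without the libraries that stood apart, 0 members were called at either time, and the medians were -0.12 and 0.019.

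The OM intervals were wide for the members that the Cx lowered. Slc22a6 stood at 58.5, 74, 14.4, 37.2 and 14.8 FPKM at HS14 and 14.9, 46.4, 72, 121 and 96 FPKM at HS21, within the LS range of 3.42 to 336. The 95% interval of its log2 ratio at HS21 ran from -2.71 to 1.52, and that of Slc22a8 from -3.62 to 2.63, so neither a fall of the size seen in the Cx nor a rise could be told from none. The interval was narrower for Slc22a5, whose libraries stood at 15.2, 30.6, 17.5, 17.7 and 12.9 FPKM on LS and 14.8, 15.3, 18.3, 15.6 and 15.9 FPKM at HS21 (log2 ratio -0.23, interval -0.70 to 0.24). Its lower end did not reach the cortical estimate of -0.85, but the edgeR test of the interaction given below did not call the difference (adjusted P = 0.215). Slc22a2 stood at 348, 404, 140, 268 and 228 FPKM at HS14 and 120, 279, 467, 360 and 394 FPKM at HS21. Slc22a12 stood at 130, 167, 35.1, 66.4 and 37.5 FPKM at HS14 and 36, 102, 142, 117 and 109 FPKM at HS21. Neither gene was called (at HS21 -0.10 ± 0.47 and -0.85 ± 0.60, adjusted P = 0.979 and 0.703). Without OM LS replicates 2 and 5 the HS21 ratios were 0.14 ± 0.59 for Slc22a6 and 1.42 ± 1.16 for Slc22a8, with the sign turned, and -0.65 ± 0.37 for Slc22a12, and again none was called.

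The members nearest to a call in the OM were Abcc9 and Slco2b1, named after their values were seen. Abcc9 encodes SUR2, the receptor subunit of potassium channels of vascular smooth muscle and heart, and stood at 4.31, 1.63, 3.91, 3.81 and 4.93 FPKM on LS, 6.36, 6.05, 6.75, 6.55 and 13.3 FPKM at HS14 and 6.43, 7.48, 5.31, 6.6 and 6.66 FPKM at HS21. Both HS groups lay above all LS libraries, with log2 ratios of 1.07 ± 0.31 (unadjusted p = 0.00606, adjusted P = 0.56) and 0.80 ± 0.24 (unadjusted p = 0.00797, adjusted P = 0.18). Without the libraries that stood apart they were 0.66 ± 0.089 at HS14 (adjusted P = 0.0945) and 0.68 ± 0.12 at HS21 (adjusted P = 0.0624). It was the one member of 32 without overlap at each time, against 1.55% of all genes at HS14 and 3.59% at HS21. Slco2b1 stood at 5.45, 2.85, 4.97, 3.66 and 8.33 FPKM on LS, 7.29, 7.95, 11.1, 6.71 and 9.42 FPKM at HS14 and 6.76, 7.43, 8, 9.1 and 8.81 FPKM at HS21. The HS libraries overlapped LS replicate 5, and the ratios were 0.75 ± 0.27 (adjusted P = 0.687) and 0.67 ± 0.24 (adjusted P = 0.296). With the proximal marker sum as a covariate, 3 members were raised at HS21, Abcc9 (0.91 ± 0.19, adjusted P = 0.0263), Slco2b1 (0.81 ± 0.18, adjusted P = 0.0334) and Slco3a1 (0.45 ± 0.10, adjusted P = 0.0386), and Slc22a12 was lowered (-0.67 ± 0.11, adjusted P = 0.0124). Of all genes, 4.24% were raised and 1.12% lowered in that fit. In the OM the marker sums of LS and HS21 overlapped. From HS14 to HS21 in the OM, 0 members were called in either direction, 0 at an unadjusted p under 0.05, 0 by DESeq2 and 0 by limma. Of all 14499 genes edgeR called 0%, with 2.32% raised and 1.45% lowered at an unadjusted p under 0.05, and DESeq2 called 20 raised and 11 lowered.

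A fit with a term for the interaction of tissue and diet, over 20 libraries, asked whether the diet acted differently in the Cx and the OM. No member of 33 was called at HS14 or HS21, where 0% of all genes at HS14 and, at HS21, 0.448% above and 0.217% below 0 were. At an unadjusted p under 0.05 there were 1 member above and 0 below 0 at HS14, against 1.86% and 1.84% of all 15091 genes, and 2 above and 0 below at HS21, against 6.59% and 8.99% of all 15194. DESeq2 and limma called 0 at both times. The lowest adjusted P of the members at HS21 was 0.215, that of Slc22a5 (0.62 ± 0.24, OM ratio minus Cx ratio). Without OM LS replicate 2, Slc22a5 was called (0.89 ± 0.15, adjusted P = 0.00304), and so was Abcc5 with the opposite sign (-0.99 ± 0.27, adjusted P = 0.0324). Of all 15391 genes in that fit, 4.74% were called above and 3.55% below 0. With all 20 libraries fitted, the cortical change of no member is therefore shown to differ from that in the OM.

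The tissues were also set side by side on the HS diets, by overlap alone and without a test. The OM libraries lay entirely above the Cx in 8 of the 34 members on LS, 13 at HS14 and 14 at HS21, against 13.1%, 12.2% and 11.6% of all 15495 genes with a level. They lay entirely below in 8, 9 and 7, against 15%, 12.8% and 12.9% of those genes. Slc22a13, for example, stood at 0.699, 0.0664, 0.415, 0.393 and 0.306 FPKM in the Cx and 22, 41.1, 19.2, 20.8 and 65.1 FPKM in the OM at HS21. Abcc4 lay below the Cx in all OM libraries on LS and overlapped it at HS14 and HS21, where the OM stood at 18.2, 15.6, 10.6, 11.4 and 8.84 FPKM. OM LS held both of the libraries that stood apart in their proximal markers.

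Other carriers and regulators of organic solute handling were taken from a list of 28 genes, 26 of which were in the table. In the Cx at HS21, 15 of the 25 tested were lowered and 0 raised, 1 was lowered at HS14, and 0 were called in the OM at either time. Abcg2, the apical urate and drug pump, fell from 63.6 to 31.04 FPKM (-1.04 ± 0.062, adjusted P = 3.28e-06), and Slc13a3, the basolateral dicarboxylate carrier that feeds OAT1 and OAT3 with their exchange partner, fell from 669.7 to 363 FPKM (-0.88 ± 0.082, adjusted P = 2.62e-05). Slc17a1, the gene of an apical phosphate and organic anion transporter, had a ratio of -0.85 ± 0.11 (adjusted P = 0.000226). The transcription factor gene Hnf4a (-0.49 ± 0.088) and the scaffold gene Pdzk1 (-0.42 ± 0.064) were also lowered. Slc28a2, a nucleoside carrier, had the highest ratio of the list (0.79 ± 0.32, adjusted P = 0.0717) and was not called. On LS, 3 of the 25 were higher and 14 lower in the OM than in the Cx.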

How the data were processed

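RNA of the 30 libraries was poly(A)-selected and sequenced without strand information. According to the labels' processing notes and the study's methods, the authors aligned reads to Rnor_6.0 with HISAT2 2.0.5 and assigned them to genes with featureCounts 1.5.0-p3; StringTie 1.3.3b is also named. The authors deposited 1 table of whole-number counts per gene, without normalization, and these counts are the basis of all values here. The deposited FPKM values entered 1 alternative fit. The deposited columns of group signal (means of normalized counts), log2 fold changes and p-values of the authors' comparisons were not used.

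Groups were taken from the labels. FPKM levels were computed from counts, gene length and TMM factors over all libraries. Comparisons used edgeR 4.0.16 in R 4.3.3 (filterByExpr, TMM, glmQLFit and glmQLFTest, no covariate), fitted on all genes of the groups compared, with Benjamini-Hochberg adjustment over all genes tested and a threshold of 0.05. The ± of a log2 ratio is its SE from that fit, and levels are given as mean ± SD. Log2 CPM used a prior count of 2. Alternatives used DESeq2 1.42.0, limma 3.58.1 on log2(FPKM + 1), total-count scaling, no filter, covariates, a replicate block and left-out libraries. The tests were checked on simulated data.

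All kept members could be named. Values of some genes are not reported here, though counts over the members and lists include them. Values per library were due for members called against LS or in the interaction, for 13 members with a well-known part in renal transport and for the highest and lowest member of each role. The members and lists were chosen with earlier results of these data known. Libraries held 5408126 to 21842843 counts, and the errors given include counting error and the differences between rats.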

Additional observations from a re-analysis of the deposited data

Results flagged for a closer look

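Single libraries lay far from the other four of their group in 11 of 174 groups examined (29 members in 6 groups, 6.32%), and chance alone marks about 1 in 20. In the OM on LS, replicate 2 was the far library for Abcc9 (1.63 FPKM, median 3.91), Slc22a17 (20.7 FPKM, median 15.7) and Slco1a4 (0.41 FPKM, median 1.46). In OM HS14, replicate 10, the shallowest library and the one with the highest intron share, was high for Abcc9 (13.3 FPKM, median 6.55) and Slc22a4 (26.8 FPKM, median 13.7). Replicate 11 of OM HS21 was low for Slc22a12 (36 FPKM, median 109) and Slco1a6 (213 FPKM, median 477). In the Cx at HS14, replicate 10 was low for Slc22a23 (33.8 FPKM, median 59.3) and Slco2a1 (6.63 FPKM, median 13.1) and high for Slco1a1 (20.1 FPKM, median 13.4). Slc47a2 was low in Cx LS replicate 2 (0.0914 FPKM, median 0.449). No cause was tested.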

How the results depend on the processing

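Of the 51 single calls of members over the comparisons, 814 values were computed under other settings, of which 671 kept direction and call, 141 kept direction and lost the call, and 2 reversed, both for Abcc3 in the Cx at HS21 (0.075 with the intron share and 0.21 with the proximal marker sum as a covariate). The Cx HS14 count of 2 lowered members was 5 with DESeq2, 1 without a filter, 1 with limma on log2(FPKM + 1) and 0 with the proximal marker sum; over left-out libraries it ran from 0 to 3, and the raised count from 0 to 2, the 2 without HS14 replicate 10. At HS21 in the Cx, the 4 raised became 0 with the intron share, the 4 and 13 both 0 with the marker sum, and they ran from 3 to 4 and 11 to 13 over left-out libraries. From HS14 to HS21 in the Cx, 3 raised became 5 under total-count scaling, 0 of either direction remained with either covariate, and over left-out libraries the raised count ran from 1 to 3 and the lowered from 4 to 10, the 10 without HS14 replicate 10. In the OM at HS21, 1 member was raised with DESeq2, against 2.54% of all genes. With the marker sum 3 were raised and 1 lowered there, against 4.24% and 1.12% of all genes. With single libraries left out, OM against Cx ran from 12 to 16 higher and 7 to 10 lower, and over all settings from 12 to 17 and from 6 to 12. Over left-out libraries the interaction at HS21 gave 0 to 1 in each direction. The 1 came without OM LS replicate 2, where 4.74% of all genes were above and 3.55% below 0. The marker-sum fits and those leaving out the OM libraries that stood apart were chosen after seeing the data.

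Cx and OM came from the same kidneys, but no source used here says that equal replicate numbers mark the same rat, so pairing by number was not assumed. The correlation of deviations from the group means was over 0.1 in 10 of 15 pairs (-0.0709 to 0.439; all 5 at HS21, from 0.238), and 12 of 15 libraries correlated best with their own number, a hint of pairing from the data. With a replicate block, OM against Cx on LS called 12 members higher and 8 lower instead of 15 and 8. Of all genes it called 17.1% higher and 18% lower instead of 21.3% and 19.5%. The interactions called 0 members as before. The shallow OM HS14 library and the wide OM LS group limit what the OM comparisons can detect.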

Other observations

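Of the members left out for low counts, Slc22a3, the gene of the cation transporter OCT3, summed to 119 counts over all 30 libraries with at most 14 in any, and Slco1a2 also summed to 119. Slco1b2, whose product is the main bile acid and drug carrier of its kind in liver, summed to 65 counts with at most 8 in a library. Slc22a20, the gene of the olfactory anion transporter OAT6, summed to 67. Slco6b1, Slco6c1 and both rows named Slco6d1 had 0 counts in every library.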
